A study of Mus musculus with 8 samples.

Results

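The genes described here are the Hox genes of the Hoxa, Hoxc and Hoxd clusters and the genes of the Meis and Pbx families, which encode the homeodomain partners of Hox proteins. Members were taken by gene name and not by any measured value: every non-control probe whose RefSeq transcript belongs to 1 of 34 listed genes was used. This gave 39 probes on 48 spots, out of 37018 genes and unnamed transcripts on the array. After the filter on signal, 30 of the 34 members were tested, among 23343 genes tested in all.

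The cells were sorted, as GFP-positive cells, from the ureteric bud of kidneys of C57BL/6 mice on postnatal day 0. The ureteric bud is the branching epithelium that becomes the collecting duct system. Wild-type (WT, genotype label control) cells gave 4 samples, and cells with a conditional deletion of Dot1 in Hoxb7-positive cells (KO, DOT1-null) gave 4 samples. The labels do not name the Cre line or the GFP reporter. Each sample was labelled with Cy5 and set against the RNA of WT 3 in Cy3, so every value below is a log2 ratio of that sample to 1 shared reference RNA. The series calls the samples biological replicates but names no animals or litters, so a p-value here reflects only how these samples scatter. The array barcodes from the scanner, read as slide, row and column, place all 8 arrays on 1 slide, with KO in row 1 and WT in row 2. No label states this layout. If it holds, genotype and slide row cannot be told apart.

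Hox genes encode transcription factors that give cells their position along the body axis. Within a cluster the genes lie in order of paralogue group, from the low-numbered genes used in the head and neck to the high-numbered genes used in the trunk, limbs and urogenital tract. Hoxa11, Hoxc11 and Hoxd11 are together needed for the mesenchyme of the kidney to call out the ureteric bud. Meis and Pbx proteins are TALE-class homeodomain proteins that bind DNA together with Hox proteins. DOT1L, the enzyme encoded by Dot1l, methylates histone H3 in transcribed genes, and in leukaemias with rearranged MLL it is needed for high levels of HOXA9 and MEIS1.

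The promoters of Hoxd9, Hoxd4 and Hoxd11 are shown to let their values be read beside the DNA at their starts. RefSeq sequence of the build GRCm38.p6 was at hand for 24 of the 34 members, on 26 promoters. Pbx3 and Hoxc10 were among the 10 members without it, and the promoter of Hoxa10 was searched but is not printed. The 250 bases before each start were searched on both strands for 4 motifs, with matches in capitals. TGATNNAT is a site for Pbx with Hox proteins. TGACAG is a site for Meis proteins. TTTATGG is a site for Cdx and posterior Hox proteins. TATAAA is the TATA box. None of these motifs contains another. Hoxd9, which separated KO from WT on all arrays, lies at chr2:74697513-74697762 on the plus strand and held no match. Hoxd4, whose KO arrays spread most widely among the members, lies at chr2:74721728-74721977 on the plus strand and held 1 match of TTTATGG and 1 of TATAAA, the latter read on the other strand. Hoxd11, whose probes disagreed in sign, has 2 annotated starts on the plus strand. The one at chr2:74679308-74679557 held no match, and the one at chr2:74682073-74682322 held 1 match of TGATNNAT on the other strand.
Hoxd9: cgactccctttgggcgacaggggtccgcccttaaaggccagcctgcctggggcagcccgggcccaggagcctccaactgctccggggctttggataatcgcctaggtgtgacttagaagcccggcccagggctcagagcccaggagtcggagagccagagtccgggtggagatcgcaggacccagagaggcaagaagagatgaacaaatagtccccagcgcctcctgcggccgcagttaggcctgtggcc
Hoxd4: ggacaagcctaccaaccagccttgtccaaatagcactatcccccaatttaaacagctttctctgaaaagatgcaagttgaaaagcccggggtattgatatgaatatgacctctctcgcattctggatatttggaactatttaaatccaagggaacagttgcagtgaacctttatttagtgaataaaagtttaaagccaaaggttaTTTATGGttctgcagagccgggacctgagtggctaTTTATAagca
Hoxd11 start 1: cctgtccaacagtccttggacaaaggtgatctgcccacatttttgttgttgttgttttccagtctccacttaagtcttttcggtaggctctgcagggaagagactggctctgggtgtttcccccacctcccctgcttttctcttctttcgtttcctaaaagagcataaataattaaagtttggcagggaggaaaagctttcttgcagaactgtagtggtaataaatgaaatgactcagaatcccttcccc
Hoxd11 start 2: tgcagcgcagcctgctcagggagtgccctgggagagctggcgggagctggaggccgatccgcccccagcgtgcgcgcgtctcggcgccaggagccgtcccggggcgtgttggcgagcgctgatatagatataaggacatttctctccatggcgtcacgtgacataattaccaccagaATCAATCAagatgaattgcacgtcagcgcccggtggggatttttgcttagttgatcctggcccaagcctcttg
Among all 32851 promoters of the table, TGATNNAT was in 7.68%, TGACAG in 15.9%, TTTATGG in 2.43% and TATAAA in 12.4%. Of the 26 member promoters, TGATNNAT was in 2 (Hoxa2 and Hoxd11), TGACAG in 2 (Hoxa2 and Hoxa3), TTTATGG in 1 (Hoxd4) and TATAAA in 4 (Hoxa10, Hoxd4, Hoxd13 and Meis2). These matches are letters in a window, and no binding was measured.

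The arrays differed in ways that bear on every value below. Cy5 was well above background on 52.4% to 56.2% of spots of the WT arrays and on 59.1%, 68.9%, 95.2% and 61.5% of those of KO 1 to KO 4. KO 3 had 7665 flagged spots, against 175 to 216 on each other array. On the first principal component over all genes KO 2 lay among the WT arrays. Dot1l itself had a log2 difference, KO minus WT, of 0.18 ± 0.11 (SE; limma adjusted p = 0.342) at 1 probe. No source used here places this probe inside or outside the deletion. Of the 17 ureteric bud markers on the list, all 17 were tested, with a median log2 difference of -0.01. Calb1 and Hoxb7 of that list were lower on all KO arrays than on all WT arrays, and Krt18 was higher. On the self-hybridised array of WT 3, where a ratio of 0 would be read without a dye effect, the tested members lay between -0.61 (Hoxc6) and 0.93 (Hoxc10). Ratios of different genes are therefore not set against each other, and results are differences between groups.

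All 23 Hox members of paralogue groups 1 to 11 were measurable in these cells, and of the 5 members of groups 12 and 13 Hoxd12 was. Of the 23, 21 had Cy5 well above background on all 4 WT arrays. Hoxc5 and Hoxc8 were above it on 3 WT arrays, and Hoxc8 on 2 KO arrays. Hoxd12 was above background on 4 WT and 3 KO arrays. Hoxa13, a gene of the hindgut and digits, Hoxc12, Hoxc13, a gene of hair and nails, and Hoxd13, a gene of the digits, had no WT array well above background. Of these, both Hoxa13 probes and Hoxc12 were above background on KO 2 and KO 3, Hoxc13 on KO 3 and KO 4, and Hoxd13 on KO 3, the array on which 95.2% of all spots passed. No fold is given for these 4 genes. All 6 Meis and Pbx members were above background on all 4 WT arrays.

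No member passed the test between KO and WT. Under limma with Benjamini-Hochberg adjustment over all 23343 genes, 0 of 30 members were called at 0.05, where 0.00857% of all genes (2, both lower in KO) were called. At an unadjusted p under 0.05 there were 6 members, all lower in KO: Hoxa10, Hoxc10, Hoxd3, Hoxd9, Hoxd12 and Pbx3. That is 20% of the members, against 24.1% of all genes, made up of 13.6% lower and 10.4% higher in KO. For 2 of the 28 members with complete values, Hoxd9 and Pbx3, the KO and WT ranges did not overlap. That is 7.14%, against 11.5% of all genes (7.64% lower and 3.85% higher in KO), and no member was higher without overlap. Against genes of the same direction, the 20% of members lower at an unadjusted p under 0.05 lay above the 13.6% of all genes, and the 7.14% without overlap lay near the 7.64%.

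Most members had lower means in KO. The log2 difference was below 0 for 26 of 30 members, or 86.7%, against 54.1% of all genes. Its median was -0.19 over the members and -0.02 over all genes. The 4 members above 0 were Hoxa3, Hoxd4, Hoxd8 and, at its brighter probe, Hoxd11. With Hoxd11 read by its other probe, 27 of 30 were below 0. With median centring or Cy5 alone Hoxa3, Hoxd4 and Hoxd8 turned below 0 and Pbx4 above it, and with Cy5 alone so did Hoxa6. Those 2 settings move the median of all genes to -0.30 and -0.17. Relative to that the median of the members was -0.24 and -0.30, with 28 and 27 of 30 members below 0, against 77.4% and 68.9% of all genes. The members share 8 arrays and vary together, so this count describes these arrays and was not tested. In a bulk sample, fewer cells of a type and less RNA per cell cannot be told apart.

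**Figure D1:**
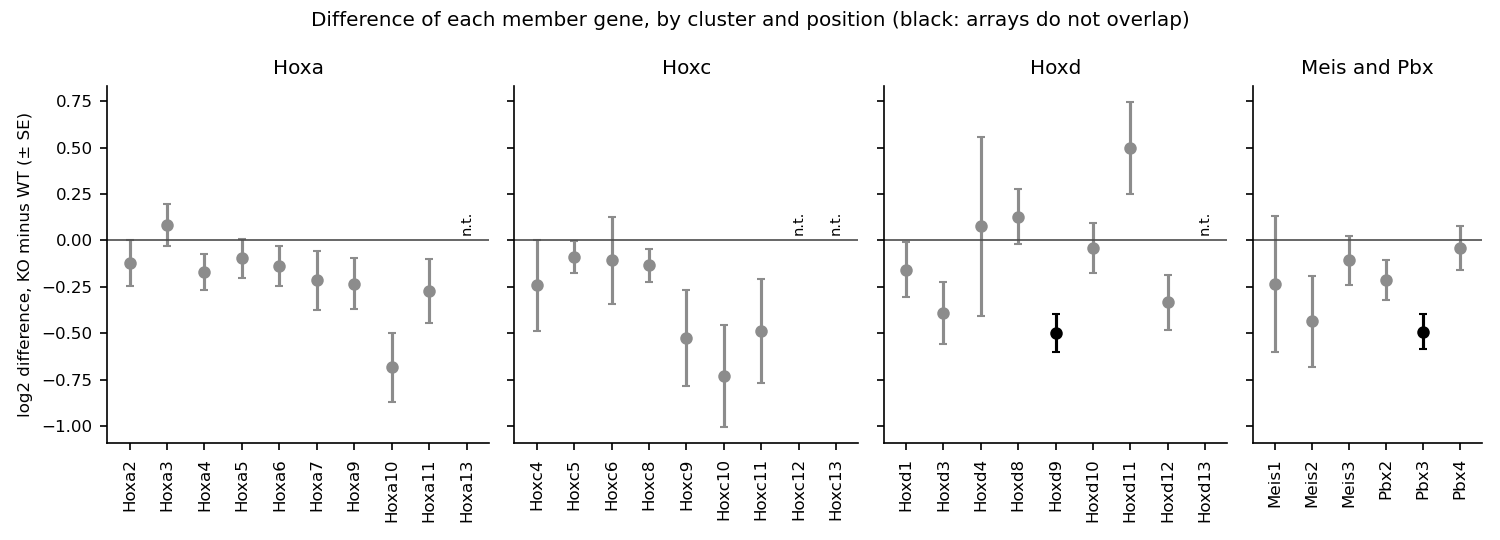
Log2 difference between KO and WT (vertical axis, ± SE) of each member, in paralogue order within the Hoxa, Hoxc and Hoxd clusters and for the Meis and Pbx genes; n.t. marks members not tested, and black points members whose 4 KO and 4 WT arrays do not overlap. Most points lie below 0, the lowest being Hoxc10 at -0.73 and Hoxa10 at -0.68, and Hoxd11 lies highest at 0.50.

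In the Hoxa cluster, on chromosome 6, 8 of 9 tested members were below 0, with a median of -0.17. Hoxa10, a gene of the trunk and reproductive tract, had the largest difference. Its log2 ratios were -0.16, 0.33, 0.26 and -0.28 on WT 1 to WT 4 and -0.73, -0.18, -0.81 and -0.86 on KO 1 to KO 4. KO 2 lay within the WT range, and the other 3 KO arrays lay below all WT arrays. The log2 difference was -0.68 ± 0.19 (SE; limma adjusted p = 0.113). Hoxa3, a gene of the thymus and parathyroid, was the highest of the cluster at 0.08 ± 0.11 (SE). It had -0.55, -0.18, -0.26 and -0.53 on the WT arrays and -0.22, -0.46, -0.32 and -0.18 on the KO arrays, which overlapped throughout.

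The other Hoxa members had smaller differences. Hoxa2, a gene of the hindbrain, was at -0.12, Hoxa4 at -0.17, Hoxa5, a gene of the lung and neck, at -0.10, Hoxa6 at -0.14 and Hoxa7 at -0.22. Hoxa9, the cluster gene most tied to DOT1L in leukaemia, was at -0.23 at its brighter probe. That probe overlapped between groups, from -0.21 to 0.38 in WT and from -0.33 to -0.08 in KO. Its other probe had 0.29, 0.85, 0.81 and 0.27 in WT and 0.21, 0.09, 0.04 and 0.04 in KO, with every KO array below every WT array and a difference of -0.46 ± 0.15 (SE). The 2 probes of Hoxa9 thus shared their sign and differed on whether the groups overlapped.

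Hoxa11, which is needed with its paralogues for kidney induction, was read by a probe printed on 10 spots. Its spots on 1 array had an SD between 0.05 and 0.08 on the log2 scale, while its array means ran from -0.60 to 0.19 in WT and from -0.62 to -0.10 in KO. The spread between arrays was thus wider than the spread between spots of 1 array. Its log2 difference was -0.27 ± 0.17 (SE; limma adjusted p = 0.362). The antisense transcript Hoxa11os, from the opposite strand, was at -0.18 ± 0.22 (SE), and 8 of the other 9 non-coding Hox transcripts on the list were not tested.

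All 7 tested members of the Hoxc cluster, on chromosome 15, were below 0, with a median of -0.24. That median was -0.13 without WT 2, -0.46 without WT 4, -0.51 with a normexp offset of 0 and -0.50 with the scanner ratio. Hoxc10, a gene of the lumbar trunk and hindlimb, had 0.99, 1.45, 0.93 and 0.41 on the WT arrays and -0.24, 0.73 and 0.16 on KO 1, KO 2 and KO 4. The value of KO 3 was flagged and left out. KO 2 lay within the WT range and the other KO arrays below it. The log2 difference was -0.73 ± 0.28 (SE; limma adjusted p = 0.165). Hoxc9 was at -0.53 ± 0.26 (SE) and Hoxc11 at -0.49 ± 0.28 (SE). Hoxc4 was at -0.24, Hoxc5 at -0.09, Hoxc6 at -0.11 and Hoxc8 at -0.13. Hoxc5 had -0.15, -0.23, -0.23 and -0.14 on the WT arrays and -0.25, -0.26 and -0.32 on KO 1, KO 2 and KO 4, with KO 3 flagged. These 3 KO values lay below WT by a narrow margin, with WT 2 at -0.234 and KO 1 at -0.246 (limma adjusted p = 0.543). With KO 3 left out, KO and WT did not overlap for 15% of all genes and 10% of members. Hoxc6 turned to 0.03 without WT 2 and to 0.08 without KO 1.

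Hoxc9 and Hoxc11 varied together between arrays, within WT as well as between groups. Hoxc9 had -0.74, -0.23, -0.50 and -1.22 on WT 1 to WT 4 and -1.77, -0.67, -1.04 and -1.31 on KO 1 to KO 4. Hoxc11 had 0.13, 0.65, 0.22 and -0.52 on the WT arrays and -0.91, 0.20, -0.18 and -0.59 on the KO arrays. In both genes WT 2 was the highest array and KO 1 the lowest, WT 4 was the lowest WT array and KO 2 the highest KO array, and the groups overlapped.

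In the Hoxd cluster, on chromosome 2, 5 of 8 tested members were below 0, with a median of -0.10, which ran from -0.21 to 0.00 when 1 array was left out (0.00 without WT 3). For Hoxd9, whose promoter is shown above, the groups did not overlap. At the brightest probe of each gene, it was the only such Hox member with values on all 8 arrays. The second Hoxa9 probe, given above, did not overlap either. The log2 ratios of Hoxd9 were -0.07, -0.22, 0.19 and 0.03 on the WT arrays and -0.59, -0.54, -0.44 and -0.50 on the KO arrays. Every KO array, KO 2 included, lay below every WT array, and the KO arrays were close together. The log2 difference was -0.50 ± 0.10 (SE; limma adjusted p = 0.105). Hoxd9 and Pbx3 also did not overlap in the settings that recompute the array values, among them the scanner ratio, median centring and Cy5 alone.

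Hoxd11, the Hoxd partner of Hoxa11 in kidney induction, gave opposite signs at its 2 probes. The brighter probe had -0.41, 0.06, -0.03 and -0.79 in WT and 0.62, -0.44, 0.38 and 0.25 in KO, its log2 difference being 0.50 ± 0.25 (SE; limma adjusted p = 0.252). There KO 2 lay in the WT range and the other 3 KO arrays lay above all WT arrays. The other probe had -0.04, 0.37, 0.42 and -0.05 in WT and -0.49, 0.14 and -0.05 on KO 1, KO 2 and KO 4, a difference of -0.30 ± 0.18 (SE), with KO 3 flagged. KO 1 was the highest KO array at the first probe and the lowest at the second. Both probes are assigned to Hoxd11 by their transcripts. RefSeq gives the gene 2 starts, and which transcript each probe reads was not determined here. No direction is given for Hoxd11.

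Hoxd4, a gene of the hindbrain and neck, stood apart by its spread and not by its mean. WT arrays had 0.70, 0.34, 0.56 and 0.63, and KO arrays 1.95, -0.60, -0.13 and 1.30. KO 1 and KO 4 lay above all WT arrays and KO 2 and KO 3 below them. The SD was 0.16 in WT and 1.20 in KO, and 99.6% of all genes tested had a lower SD in KO. The log2 difference of 0.08 ± 0.48 (SE) had no stable sign: it was -0.37 without KO 1, -0.15 without KO 4 and 0.49 without KO 2. Hoxd4 was chosen for per-array values after they were seen.

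Hoxd3, the neighbour of Hoxd4, had -0.01, 0.06, 0.00 and 0.26 in WT and 0.04, -0.77, -0.41 and -0.11 in KO, its log2 difference being -0.39 ± 0.17 (SE; limma adjusted p = 0.192) and -0.24 without KO 2. In both Hoxd3 and Hoxd4, KO 1 was the highest KO array, KO 4 the next, then KO 3, and KO 2 the lowest. Their RefSeq spans overlap, as do those of Hoxd10 with Hoxd11 and of Hoxa3 with Hoxa4, Hoxa5 and Hoxa6. Whether a probe reads transcripts of both genes was not tested.

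Of the remaining Hoxd genes, Hoxd1 was at -0.16, Hoxd8 at 0.13 and Hoxd10, a gene of lumbar motor neurons and the limb, at -0.04. Hoxd10 was at 0.08 without WT 3. Hoxd12 had 0.46, 0.69, 0.07 and 0.00 in WT and -0.04, 0.01, 0.00 and -0.08 in KO, its log2 difference being -0.33 ± 0.15 (SE; limma adjusted p = 0.205). The signal of Hoxd12 was below the background cut on KO 1, so its KO level is near the limit of the array, and WT 3 and WT 4 lay beside the KO arrays. The size of this difference moved with the background correction, to -0.52 without subtraction, -0.87 with a normexp offset of 0 and -1.68 with the scanner ratio, and in those settings the groups did not overlap. Hoxc8, also near background, moved likewise, from -0.13 to -1.19 with the scanner ratio.

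**Figure D2:**
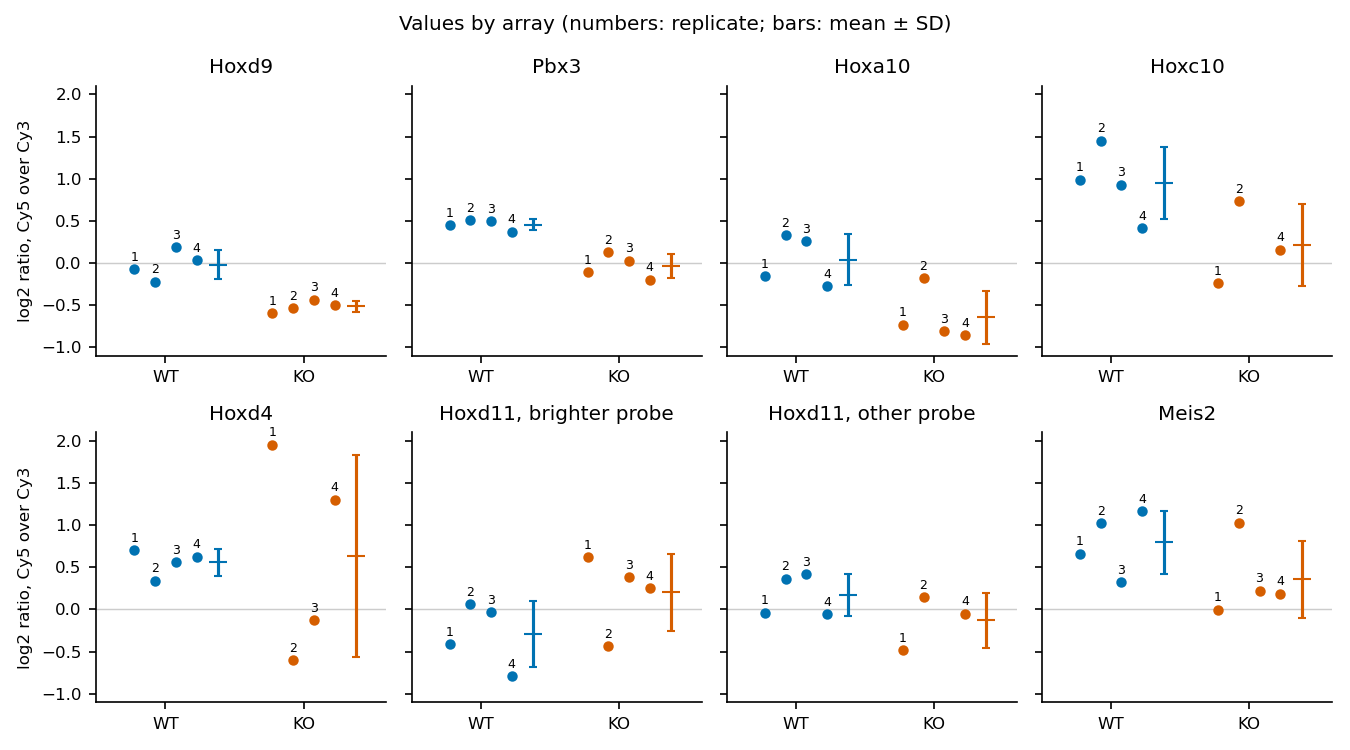
Log2 ratio of Cy5 (the sample) over Cy3 (WT 3) on each WT and KO array for 7 members, with the replicate number above each point and the mean ± SD of the group beside it. Hoxd9 and Pbx3 separate fully, KO 2 lies with WT in Hoxa10, Hoxc10, Meis2 and the brighter Hoxd11 probe, and the KO arrays of Hoxd4 lie on both sides of WT.

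Ordered by position, the median log2 difference was -0.16 in paralogue groups 1 to 4 (5 of 7 below 0), -0.11 in groups 5 to 8 (6 of 7 below 0) and -0.41 in groups 9 to 13 (9 of 10 tested below 0). Of the 6 members with an unadjusted p under 0.05, 4 were among the 10 tested in groups 9 to 13 (40%) and 1 among the 7 in groups 1 to 4 (14.3%). None was among the 7 in groups 5 to 8, and the other was Pbx3. Over all genes the share was 24.1%, with 13.6% lower in KO. These are few genes, and Hoxd12, of the 4, was near background. Within groups 9 to 13 the differences ran from -0.73 (Hoxc10) to 0.50 (Hoxd11), and those in groups 5 to 8 from -0.22 to 0.13. With Hoxd11 read by its other probe, groups 9 to 13 ran from -0.73 to -0.04, with 10 of 10 below 0 and again a median of -0.41. By single group, the median was -0.50 in group 9 (3 of 3 below 0), -0.68 in group 10 (3 of 3 below 0) and -0.27 in group 11 (2 of 3 below 0, or 3 of 3 and -0.30 with the other Hoxd11 probe). Whether the position classes differ was not tested, and the arrays overlapped. The median ratio of groups 9 to 13 was -0.16, 0.15, 0.14 and -0.40 in WT and -0.46, -0.19, -0.33 and -0.37 in KO, where Hoxc10 is missing on KO 3. WT 4 was as low as the KO arrays. Groups 9 to 13 had the lowest median of the 3 position classes in every alternative run, by a small margin with Cy5 alone (-0.55 against -0.54 in groups 1 to 4), with -0.26 as the highest value when 1 array was left out (WT 2) and -0.25 without the filter on signal.

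Among the TALE partners, Pbx3 separated fully. Pbx3, a Hox cofactor of the hindbrain and limb, had 0.45, 0.51, 0.49 and 0.37 on the WT arrays and -0.11, 0.13, 0.03 and -0.20 on the KO arrays. Every KO array lay below every WT array, and KO 2 was the nearest to them. The log2 difference was -0.49 ± 0.09 (SE; limma adjusted p = 0.103). Pbx2, which is broadly expressed, was at -0.21 ± 0.11 (SE), and Pbx4, known from the testis, was at -0.04 ± 0.12 (SE) and turned to 0.06 without KO 4.

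The Meis genes differed more between arrays than between groups. Meis2 had the largest difference, with 0.66, 1.03, 0.33 and 1.17 in WT and 0.00, 1.03, 0.22 and 0.19 in KO, its difference being -0.44 ± 0.25 (SE; limma adjusted p = 0.304). KO 2 lay inside the WT range and the other KO arrays lay below it. Meis1, a gene of the kidney stroma and the leukaemia target named above, had 1.23, 1.38, -0.13 and 0.71 in WT and -0.13, 1.29, 0.39 and 0.71 in KO, with a difference of -0.23 ± 0.37 (SE). Each group thus held an array at -0.13 and an array at 1.29 or more. Meis3 was at -0.11, -0.27 and -0.05 at its 3 probes, which shared their sign.

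Markers of other kidney cell types shared part of their order of arrays with the Meis genes, Hoxc9 and Hoxc11. The members as a whole varied less in KO, with medians of -0.24, -0.18, -0.16 and -0.20 on KO 1 to KO 4. Hoxd3 and Hoxd4 had another order, with KO 1 the highest KO array and KO 2 the lowest. The median of 8 nephron progenitor markers was 1.08, 1.48, 0.05 and 0.27 on WT 1 to WT 4 and -0.44, 0.82, 0.03 and 0.49 on KO 1 to KO 4. Of these markers, 7 of 8 were below 0, and Eya1 was above it. The median of the 7 tested stroma markers was 0.81, 1.17, 0.31 and 0.94 in WT and -0.08, 1.31, 0.19 and 0.44 in KO, with 7 of 7 below 0. Ren1, of the stroma list, has no value on KO 3. KO 1 was the lowest array for both lists, for Hoxc9 and Hoxc11 and for the median of the Meis genes, and WT 2 was the highest or the second highest array for all of them. Summed as linear ratios over the genes with values on all arrays, nephron progenitor markers ran from 8.28 to 22.1 in WT and from 8.51 to 14.7 in KO, and stroma markers from 6.95 to 13.9 in WT and from 6.03 to 14.9 in KO. WT 3 was the lowest WT array for both lists but the second highest WT array for Hoxc9 and Hoxc11, for which WT 4 was the lowest. On WT 4 the 5 endothelial markers had a median of 1.09, against -0.20 to 0.16 on the other WT arrays. Of 7 leukocyte markers, 4 of the 5 with complete values were lower on all KO arrays than on all WT arrays. The part of these cell types in the results for Hox, Meis and Pbx genes was not tested.

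**Figure D3:**
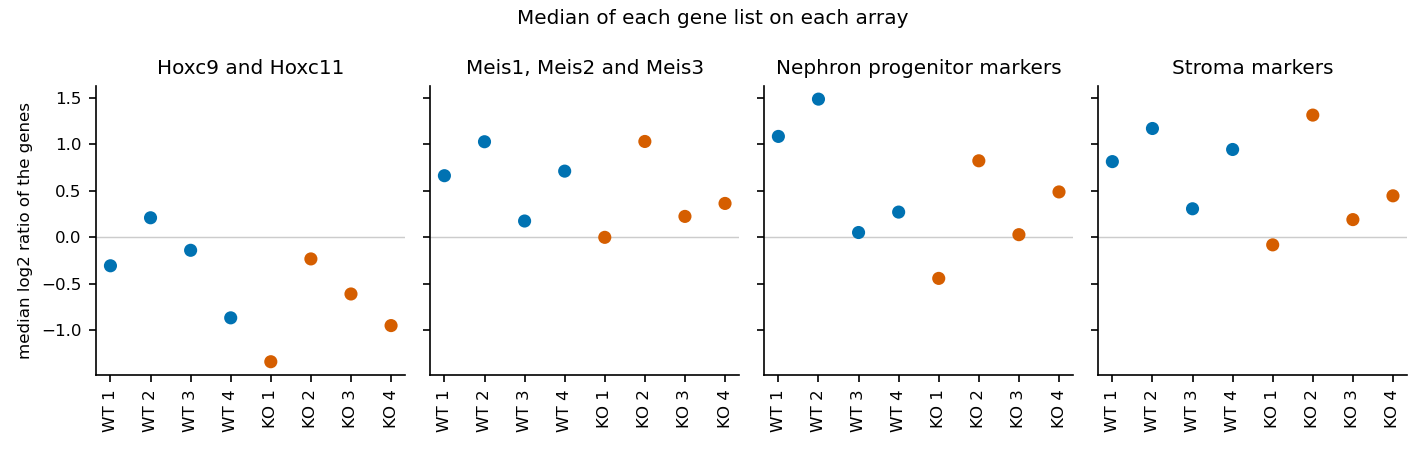
Median log2 ratio (vertical axis) over Hoxc9 and Hoxc11, the 3 Meis genes and 2 marker lists on each of the 8 arrays, WT in blue and KO in orange. In all 4 panels KO 1 is the lowest array, WT 2 is the highest or second highest, and KO 2 lies above the other KO arrays.

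The members varied more between WT arrays than most genes did. The median SD between WT arrays was 0.23 over the members and 0.12 over all genes tested, and 26 of 30 members lay above the median gene. In KO the medians were 0.22 and 0.19, with 18 of 30 members above. The exceptions in WT were Hoxc5 and the 3 Pbx genes, with an SD of 0.06 for each Pbx gene. Among the 28 members with complete values, WT 4 was the lowest WT array for 17, against 26.9% of all genes, and WT 2 the highest for 13, against 22.9%. KO 2 was the highest KO array for 14, against 34.1%.

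Which members were called depended on KO 2. Without KO 2, 4947 genes, 21.2% of all genes, passed the adjusted threshold, and so did 6 of 30 members, or 20%. These were Hoxa10 at -0.84 ± 0.15 (SE; limma adjusted p = 0.00766), Hoxc10 at -0.99, Hoxd9 at -0.49, Meis2 at -0.66 and Pbx3 at -0.55, all lower, and the brighter Hoxd11 probe at 0.71, higher. With array weights, where KO 2 had the lowest weight at 0.339, 18.6% of all genes and 4 members were called: Hoxa10, Hoxc10, Hoxd9 and Pbx3. Over both directions the share of members lay under that of all genes. On the lower side it was 16.7% of members (5 of 30) against 11.2% of all genes without KO 2, and 13.3% (4 of 30) against 8.79% with array weights. These are small counts, and whether the shares differ was not tested. Without WT 4, KO and WT did not overlap for 7 of 28 members, or 25%, against 16.5% of all genes. Those members were Hoxa2, Hoxa4, Hoxa10, Hoxc8, Hoxd9, Hoxd12 and Pbx3, all lower in KO, where 10.4% of all genes were. Without KO 2 the count was also 7, against 33.6% of all genes, and the 6 lower in KO were 21.4% of members, against 19.3% of all genes.

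**Figure D4:**
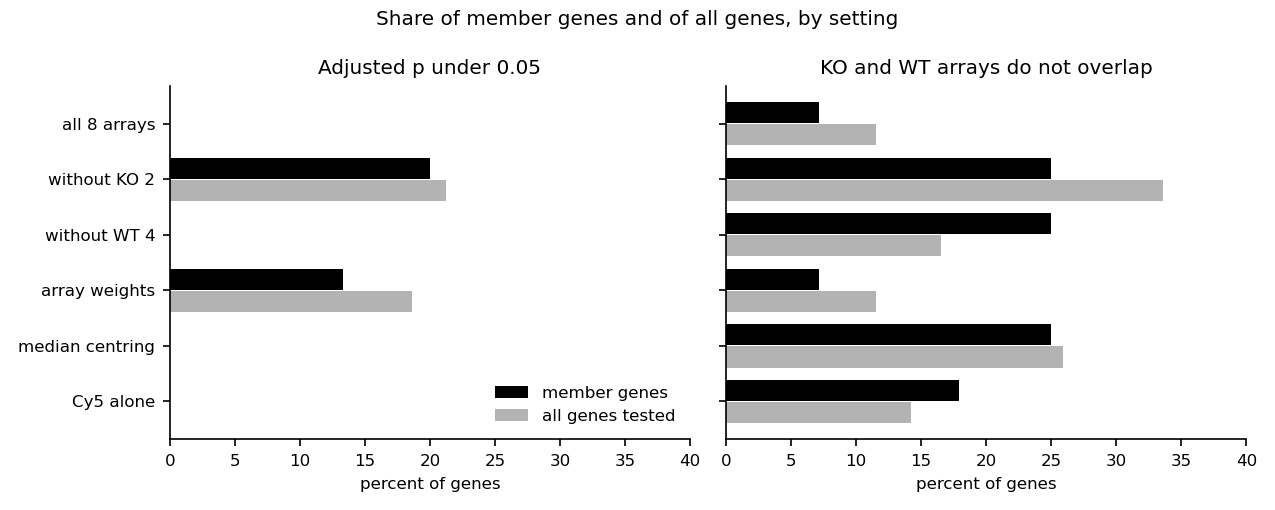
Percent (horizontal axis) of the member genes (black) and of all genes tested (grey) that passed an adjusted p of 0.05 (left) or had separate KO and WT ranges (right), with all 8 arrays and under 5 alternatives. Members are called only without KO 2 and with array weights, at 20% and 13.3%, beside 21.2% and 18.6% of all genes in both directions.

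The Hoxb cluster, the remaining Hox cluster, had 8 of 10 genes tested, with 5 below 0 and a median of -0.06. Its arrays did not overlap for 2 of 8 genes, Hoxb7 at -0.71 ± 0.08 (SE; limma adjusted p = 0.0570) and Hoxb9 at -1.02 ± 0.13 (SE; limma adjusted p = 0.0677). In paralogue group 9 the 4 genes were thus at -0.23 (Hoxa9), -1.02 (Hoxb9), -0.53 (Hoxc9) and -0.50 (Hoxd9), all below 0. The 11 tested genes beside the Hoxa, Hoxc and Hoxd clusters had a median of 0.04, with 5 below 0 and none without overlap. Of 8 other TALE genes, Tgif1 was higher without overlap at 0.30 and Tgif2 lower at -0.40. Of 18 tested regulators of Hox genes, 9 were below 0, and arrays did not overlap for Psip1 at -0.54, a chromatin reader that recruits MLL, and for the Polycomb genes Pcgf2 at -0.34 and Phc1 at -0.29. The other Psip1 probe was at -0.09. Whether any of these lists differs from the members was not tested.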

How the data were processed

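Per the labels, 0.5 µg of total RNA of each of 8 samples was amplified, labelled with Cy5 and hybridised with Cy3-labelled RNA of WT 3. The scanner files that the authors deposited give the intensity of each spot in both channels. The submitters' processing notes name Agilent Feature Extraction, version 10.7.3.1. A log10 ratio per spot was also deposited, in the scanner files and in the series value table. Median signals and median backgrounds were used, since these files hold no mean signals.

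Intensities were corrected with normexp (offset 50). The log2 ratios were then fitted by loess within each array, control spots having weight 0, in limma 3.58.1 (R 4.3.3, with version 1.17.8 of data.table and jsonlite 2.0.0). Flagged spots were dropped and spots of a probe averaged. Probes needed Cy5 well above background on 4 or more of the 8 arrays and unflagged values on 3 or more arrays per group. The brightest probe stood for a gene. The 2-sided limma test of KO against WT (lmFit, eBayes) was adjusted by Benjamini and Hochberg's method over 23343 genes. The code was checked on simulated data. Loess sets most genes of an array near 0, so a shift common to most genes would be removed. Promoters were read with pandas 2.3.3, and figures drawn with matplotlib 3.10.9.

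The members and lists were chosen with earlier results of these data known. Every member is named. Array values are given for members without overlap, for the largest difference each way in each cluster and for members whose probes differ in sign. Of other genes, Dot1l and list genes without overlap are named. Array values of Hoxc5, Hoxc9, Hoxc11, Hoxd3, Hoxd4, Hoxd12, Meis1 and the second Hoxa9 probe, and the genes Eya1, Ren1 and Hoxa11os, were added after their values were seen. Alternatives were other background corrections and normalisations, the scanner ratio, the series table, Cy5 alone, other filters, array weights, the mean over probes, each probe alone, a replicate block and each array left out. Weight 0 for flagged spots in loess and the other Hoxd11 probe were added after seeing the data. Protein sequences were not used here.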

Additional observations from a re-analysis of the deposited data

Results flagged for a closer look

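No array stood apart from the other 3 of its group by Dixon's test at the 95% level in any of 76 groups of 4, which were the WT and KO values of each tested member with complete values and the medians of the members, clusters and position classes.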

How the results depend on the processing

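The arrays limit the precision: with 4 against 4, KO 2 among the WT arrays and KO 3 rich in flagged spots, a missed threshold does not show that a gene is alike in both groups. In the alternatives that tested 30 members, between 25 and 28 of them were below 0. The count was 28 of 34 without a filter and 23 of 27 with the filter on all 8 arrays. With each probe alone, 30 of 34 probes were below 0. No member was called in 20 of the 22 alternatives. With array weights 4 were called, and 0 to 6 when an array was left out (6 without KO 2). The causes of the shifts below were not tested.

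The count of genes called, 2 with all arrays, was 1 with a normexp offset of 0, without background subtraction or with the mean over probes, 0 with median centring or Cy5 alone, 5 with scaling between arrays or with flagged spots at weight 0 in loess, 4 without a filter, 4353 with array weights and 1 to 4947 when an array was left out. Over all genes, same-numbered WT and KO arrays deviated with correlations of -0.24, 0.05, 0.11 and -0.02. No KO array correlated best with its own number. Of the 28 members with complete values, WT 2 was the highest WT array for 13 and KO 2 the highest KO array for 14. WT 4 was the lowest for 17, and KO 4 for 10, beside 9 for KO 1. With a replicate block the SE of Hoxc9 went from 0.26 to 0.15, and that of Hoxc8 from 0.091 to 0.093. Whether replicate numbers pair the values of the members was not tested. With the replicate block, which is also the slide column if the barcodes give it, 0 genes and no members were called. There 10 members had an unadjusted p under 0.05, or 33.3%, against 22.6% of all genes.

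Members without overlap numbered 7 with median centring (25.9% of all genes) and 5 with Cy5 alone (14.2% of all genes), and 2 to 7 when an array was left out. With median centring, medians were -0.54 over all members, -0.51 in Hoxa, -0.55 in Hoxc, -0.38 in Hoxd, -0.61 in Pbx, -0.40 in groups 1 to 4, -0.38 in groups 5 to 8 and -0.83 in groups 9 to 13. With Cy5 alone they were -0.47 over all members, -0.46 in Hoxa, -0.54 in groups 1 to 4 and -0.26 in groups 5 to 8. The Pbx median was -0.50 with the scanner ratio or the series table, where groups 5 to 8 were at -0.24, and groups 5 to 8 were at -0.20 with an offset of 0.

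Signs turned with median centring for Dot1l (-0.18), Hoxa3 (-0.22), Hoxd4 (-0.29), Hoxd8 (-0.38), Pbx4 (0.086) and Tgif1 (-0.20). With Cy5 alone they turned for Hoxa3 (-0.30), Hoxa6 (0.45), Hoxd4 (-0.0012), Hoxd8 (-0.037) and Pbx4 (1.02), and with scaling between arrays for Hoxd4 (-0.035). Leaving out an array gave ranges of -0.24 to 0.079 for Hoxc6, -0.14 to 0.077 for Hoxd10, -0.37 to 0.49 for Hoxd4 and -0.12 to 0.061 for Pbx4.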
